A study of Mus musculus with 14 samples.

Results

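Spi1, Irf8, Cebpa, Cebpb, Runx1, Maf, Tfec, Mitf and Ikzf1 encode transcription factors of the macrophage lineage. They were chosen by name, as 9 of the 21887 protein-coding genes of the mouse genome, and H3K27ac was read within 1 kb of either gene end and over the gene span plus 100 kb on both sides. The cells were CD11b+ tumour-associated macrophages, sorted by flow cytometry from orthotopic T387 human glioblastoma xenografts in the brains of NSG mice. NSG mice lack mature lymphocytes and keep macrophages and neutrophils, both of which carry CD11b. In the pracinostat group mice received pracinostat, an inhibitor of histone deacetylases, by oral gavage from day 7 after implantation, in 4 doses weekly over 3 weeks. Its dose is labelled 30 mg/kg, but 3 mg/kg where the labels describe how it was prepared. In the DMSO group mice received the vehicle, made of DMSO, PEG300, Tween-80 and PBS, on the same schedule. CUT&Tag, in which an antibody directs a transposase to cut and tag nearby DNA, gave 4 pracinostat and 3 DMSO libraries with antibody to H3K27ac (acetylated lysine 27 of histone H3, a mark of active promoters and enhancers), and the same numbers with non-specific IgG. The libraries are labelled as biological replicates without naming an animal for any of them or saying whether animals were pooled, and every p-value below reflects the spread between these libraries only.

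PU.1, the product of Spi1, is an ETS-family factor that opens enhancers in developing myeloid cells. It binds purine-rich sites around GGAA, alone or beside partners such as IRF8 at composite ETS and IRF sites. C/EBPα and C/EBPβ (Cebpa, Cebpb) are basic leucine zipper factors that act with PU.1 in monocytes and macrophages, and RUNX1 binds with CBFβ and drives the onset of blood formation. MAF is a large leucine zipper factor of differentiated macrophages, MITF and TFEC are helix-loop-helix zipper relatives that activate lysosomal and osteoclast genes, and Ikaros (Ikzf1) is a zinc finger factor of lymphoid and myeloid cells.

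The H3K27ac lists held 229609 to 289017 summits in the pracinostat libraries and 53503 to 291042 in the DMSO libraries. DMSO replicate 2 stood apart: of its 53503 summits, 34928 shared the lowest score, and 38.8% of all genes had a summit at their ends there, against 57.5 to 61.6% in the other 6 libraries. Counts of tests and the differences that it moved most are therefore also given without it. The IgG lists held 2194 to 10186 summits in pracinostat libraries and 9244 to 18517 in DMSO libraries. Over 15 macrophage markers the mean gene-end percentile, where 100 is the highest score of a library, was 64.9 to 76.6 in pracinostat libraries and 57.3 to 65.0 in DMSO libraries, and over the 10 ranked of 13 neutrophil markers it was 18.9 to 25.8 in pracinostat libraries and 30.4 to 41.9 in DMSO libraries (30.4 and 31.8 without DMSO replicate 2). No H3K27ac library had a summit at the ends of the neutrophil markers Ly6g and Retnlg or the T cell marker Cd8a. The same held for the neuronal markers Snap25 and Syt1 and the oligodendrocyte markers Mag, Mobp and Olig1. Other markers of these cells did have summits. Those ranked were 10 of 13 for neutrophils, 5 of 9 for lymphocytes, 2 of 6 for neurons and astrocytes and 2 of 7 for oligodendrocytes. What the lower neutrophil values in pracinostat libraries contribute to the members' results was not tested, and in sorted bulk cells a change in the makeup of the cells and a change of the mark within a cell cannot be told apart.

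At the gene ends of the 8 factors that could be ranked, H3K27ac did not pass the test for a difference between pracinostat and DMSO. Each gene's highest summit score was ranked within its library among 13494 genes, those marked by a summit in 3 or more of the 7 H3K27ac libraries, so that 100 is the library's highest. Spi1, Cebpa and Mitf lay high in both groups, Irf8 and Ikzf1 near the middle, and Tfec was not ranked. The following values are these percentiles, for pracinostat replicates 1 to 4 and then DMSO replicates 1 to 3, and a difference is in normal-score units, of which 1 is the SD over all ranked genes.

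Spi1 (gene ID 20375, chr2:91082374-91115759) stood at 98.8, 97.2, 98.4 and 69.2 in pracinostat libraries, against 91.7, 88.7 and 95.5 in DMSO libraries. The 3 highest values were pracinostat libraries, and so was the lowest, replicate 4, so the groups overlapped. The means were 90.9 ± 14.5 (SD, n = 4) with pracinostat and 91.9 ± 3.43 (n = 3) with DMSO. On the normal-score scale the difference was 0.27 ± 0.45 (SE), with an adjusted p of 0.958 (limma, Benjamini-Hochberg over all ranked genes), and leaving out 1 library moved it between 0.09 (without pracinostat replicate 1) and 0.67 (without pracinostat replicate 4). The mean percentile was thus slightly lower and the mean normal score slightly higher with pracinostat.

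The partner of PU.1, Irf8 (gene ID 15900, chr8:120736358-120756694), stood at 51.4, 54.5, 46.6 and 42.4 in pracinostat libraries, against 51.1, 47.3 and 30.0 in DMSO libraries. All 7 values lay between 30.0 and 54.5, and the lowest was a DMSO library. In DMSO replicate 2 the 47.3 is the percentile of that library's lowest score, which many genes share.

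Cebpa (gene ID 12606, chr7:35119293-35121928) stood at 92.2, 89.9, 95.9 and 77.3 in pracinostat libraries, against 90.2, 72.3 and 97.6 in DMSO libraries. Cebpb (gene ID 12608, chr2:167688915-167690432) stood at 60.3, 62.6, 76.7 and 33.2 in pracinostat libraries, against 63.9, 47.3 and 84.2 in DMSO libraries. For both C/EBP genes the groups overlapped, the highest value was DMSO replicate 3, and pracinostat replicate 4 was the lowest of its group. The differences were 0.01 ± 0.43 for Cebpa and -0.21 ± 0.38 for Cebpb (SE).

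Runx1 (gene ID 12394, chr16:92601466-92826074) stood at 68.1, 64.9, 46.6 and 39.3 in pracinostat libraries, against 52.6, 79.2 and 70.7 in DMSO libraries. Its 2 lowest values were pracinostat libraries and its 2 highest were DMSO libraries, and its unadjusted p of 0.346 was the smallest among the ranked factors (adjusted p = 0.931, limma). Ikzf1 (gene ID 22778, chr11:11684962-11772930) stood at 57.5, 51.4, 59.5 and 51.2 in pracinostat libraries, against 36.2, 47.3 and 54.7 in DMSO libraries. DMSO replicate 3 lay within the pracinostat range and the other 2 DMSO libraries below it.

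Maf (gene ID 17132, chr8:115703253-115706894) stood at 38.3, 34.4, 57.2 and 90.3 in pracinostat libraries, against 67.5, 93.6 and 30.0 in DMSO libraries. Mitf (gene ID 17342, chr6:97807002-98021360) stood at 65.7, 89.5, 93.0 and 90.3 in pracinostat libraries, against 87.5, 88.7 and 45.0 in DMSO libraries. Both genes varied widely within a group: Maf spanned 34.4 to 90.3 with pracinostat and 30.0 to 93.6 with DMSO, and for Mitf DMSO replicate 3 lay far below the other libraries. Tfec (gene ID 21426, chr6:16830927-16898464) had a summit at its ends in 2 of the 4 pracinostat libraries and in 0 of the 3 DMSO libraries.

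**Figure D1:**
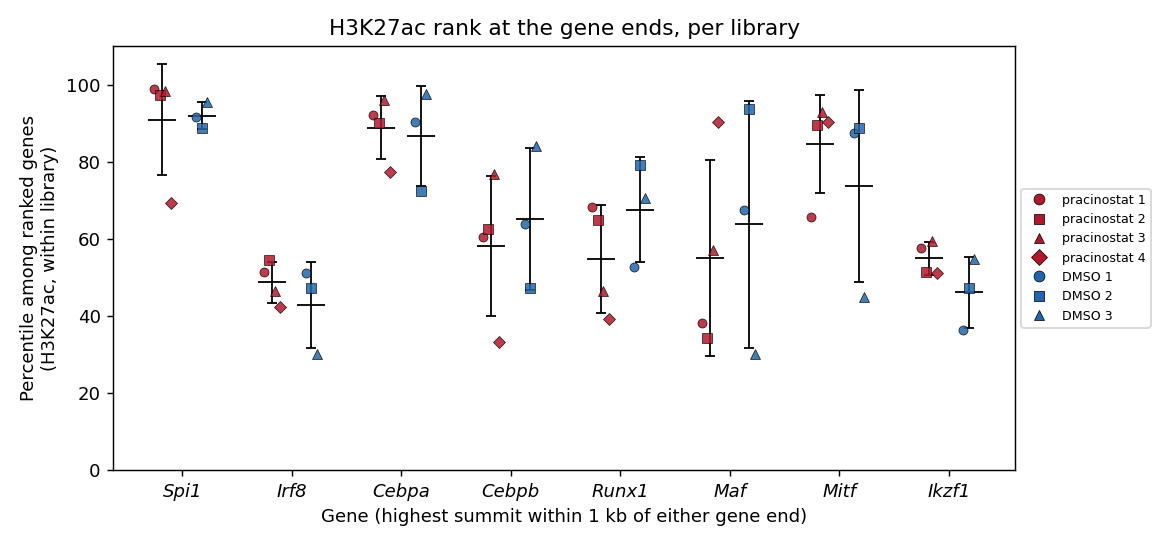
Percentile of the highest H3K27ac summit within 1 kb of either gene end (y axis, percent of 13494 ranked genes) for the 8 ranked factors (x axis), with pracinostat libraries to the left of DMSO libraries. Symbols are single libraries and bars the mean ± SD (n = 4 pracinostat, n = 3 DMSO); Spi1 in pracinostat replicate 4, at 69.2, lies well below the other 6 libraries.

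Of the 9 factors 8 were ranked, 5 higher and 3 lower on the normal-score scale with pracinostat, and 0 passed an adjusted p of 0.05 (limma), as did 0% of all 13494 genes. At an unadjusted p under 0.05 the count was also 0, against 6.17% of all genes. The groups separated fully for 0 of the 8, whereas every pracinostat library lay above every DMSO library for 2.88% of all genes and below for 3.79%. The median difference over the 8 was 0.08, and over all ranked genes it was -0.01. Without DMSO replicate 2 there were again 5 higher and 3 lower and 0 at either threshold, but Maf changed to 0.23 and Cebpa to -0.34. Pracinostat replicate 4 was the lowest of the 7 libraries at 3 of the 8 genes, and DMSO replicate 3 likewise at 3.

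**Figure D2:**
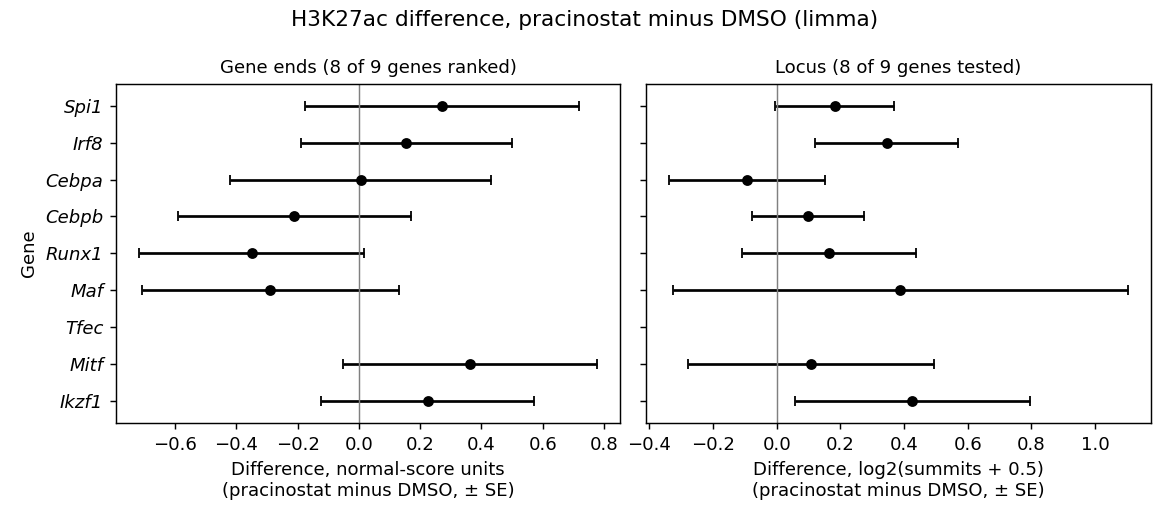
Differences between pracinostat and DMSO from limma, as points with SE, for gene ends (left, normal-score units) and for top-ranked summits over the gene span plus 100 kb (right, log2 scale). Positive values are higher with pracinostat; Tfec was fitted in neither, and at the gene ends the differences run from -0.35 for Runx1 to 0.36 for Mitf.

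By a rule of likeness, genes were compared with Spi1 by the Pearson correlation of their gene-end normal scores over the 7 libraries. The closest were Stxbp2 (r = 0.999), Ctsc (r = 0.991) and Nop16 (r = 0.966). All 3 had their lowest value in pracinostat replicate 4, as Spi1 did. Ctsc encodes cathepsin C. Its percentile was 94.5, 90.2, 94.0 and 71.4 in pracinostat libraries and 86.6, 84.6 and 89.4 in DMSO libraries. Among the other factors r with Spi1, again on normal scores, ran from -0.78 for Maf to 0.70 for Cebpb. These are descriptions over 7 points that share libraries and list lengths.

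Several of the genes have more than 1 start site, and the mark was read within 1 kb of each, where the strand and start sites of 7 of the 9 factors are given. The percentile here is the share of the 32262 consensus regions, merged from the 15000 highest summits of each library, whose score in that library is at or below that of the site. In DMSO replicate 2 a value of 53.7 on this scale stands for that library's lowest score, which 34928 of its 53503 summits share. Runx1 is transcribed from a distal and a proximal promoter, 128.7 kb apart, and Ikzf1 from a pair 4.25 kb apart. The 250 bases before each of these sites are shown because the mark favoured the second site of both genes, and those of Cebpa and Mitf because Cebpa has a single strongly marked site and Mitf both the most and the least marked site of 1 gene. The sequences are those of RefSeq, build GRCm38.p6 (mm10), written 5′ to 3′ on the gene's strand. Capitals mark matches, on either strand, to GAGGAAGT (PU.1), GGAANNGAA (the composite ETS and IRF site), TTGCNNAA (C/EBP), TGTGGT (RUNX), TGANTCA (AP-1), CACGTG and CACATG (MITF and TFEC) or TGCTGA (MAF).
Cebpa, chr7:35119043-35119292, plus strand: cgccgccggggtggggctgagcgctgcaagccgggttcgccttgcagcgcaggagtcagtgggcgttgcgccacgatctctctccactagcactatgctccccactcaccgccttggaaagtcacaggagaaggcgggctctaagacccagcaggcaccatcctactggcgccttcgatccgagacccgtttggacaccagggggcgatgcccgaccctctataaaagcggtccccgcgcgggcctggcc
Runx1 distal site, chr16:92826075-92826324, minus strand: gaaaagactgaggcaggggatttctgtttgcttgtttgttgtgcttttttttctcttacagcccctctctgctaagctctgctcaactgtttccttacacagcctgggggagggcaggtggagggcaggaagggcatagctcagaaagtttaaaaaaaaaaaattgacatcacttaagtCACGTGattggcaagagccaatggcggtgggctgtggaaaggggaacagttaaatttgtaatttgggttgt
Runx1 proximal site, chr16:92697330-92697579, minus strand: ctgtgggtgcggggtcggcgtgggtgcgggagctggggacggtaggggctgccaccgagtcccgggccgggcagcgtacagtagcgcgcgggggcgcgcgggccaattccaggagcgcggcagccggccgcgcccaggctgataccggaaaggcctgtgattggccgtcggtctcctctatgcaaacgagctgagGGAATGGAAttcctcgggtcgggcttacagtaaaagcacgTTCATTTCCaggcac
Ikzf1 first site, chr11:11685675-11685924, plus strand: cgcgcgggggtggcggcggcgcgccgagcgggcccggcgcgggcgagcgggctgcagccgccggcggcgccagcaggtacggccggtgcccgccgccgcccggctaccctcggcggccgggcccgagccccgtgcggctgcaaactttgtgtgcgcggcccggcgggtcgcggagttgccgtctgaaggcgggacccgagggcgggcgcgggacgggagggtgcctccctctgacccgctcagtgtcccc
Ikzf1 second site, chr11:11689927-11690176, plus strand: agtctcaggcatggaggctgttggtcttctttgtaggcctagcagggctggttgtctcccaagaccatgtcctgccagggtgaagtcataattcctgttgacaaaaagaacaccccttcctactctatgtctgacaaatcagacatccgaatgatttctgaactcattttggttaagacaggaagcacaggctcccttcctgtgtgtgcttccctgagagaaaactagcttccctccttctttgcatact
Mitf first site, chr6:97806808-97807057, plus strand: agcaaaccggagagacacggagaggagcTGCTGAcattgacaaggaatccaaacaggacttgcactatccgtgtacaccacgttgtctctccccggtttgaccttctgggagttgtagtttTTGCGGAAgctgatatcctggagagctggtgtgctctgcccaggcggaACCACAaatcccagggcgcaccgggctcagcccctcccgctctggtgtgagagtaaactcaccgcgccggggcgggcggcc
Mitf last site, chr6:97991533-97991782, plus strand: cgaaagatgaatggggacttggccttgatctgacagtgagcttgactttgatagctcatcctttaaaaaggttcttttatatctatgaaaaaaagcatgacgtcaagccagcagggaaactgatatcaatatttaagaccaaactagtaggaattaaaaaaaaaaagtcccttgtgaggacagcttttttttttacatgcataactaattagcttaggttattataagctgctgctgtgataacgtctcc

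The proximal Runx1 sequence has a GC content of 67.6% and holds 2 matches to the composite ETS and IRF site, which occurs in 6.64% of the 21263 promoters of this length. The distal Runx1 sequence has a GC content of 45.6% and holds 1 CACGTG, which occurs in 6.63%. The first Ikzf1 sequence, at 82.0% GC, holds 0 matches to GGAA, while the second, at 47.6% GC, holds 6. GGAA alone occurs in 93.2% of promoters, and GAGGAAGT, in 2.23% of them, in 0 of the sequences printed. The number of GGAA matches per promoter was not compared with that of all promoters. The distal Runx1 sequence holds 4, and that of the weakly marked Tfec site, not printed, holds 5. The Irf8 sequences, also not printed, hold 1 at the first site and 2 at the second, which was again the higher one. The first Mitf sequence holds 1 match each to TTGCNNAA, TGTGGT and TGCTGA, which occur in 9.09, 12.4 and 14.9% of promoters, and the third, at 36.0% GC, holds none of the capitalised motifs. A match is a run of letters and not a measured binding site.

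At the proximal Runx1 site the percentile was 65.2, 86.6, 98.7 and 79.8 in pracinostat libraries, against 90.5, 94.5 and 96.7 in DMSO libraries. At the distal site it was 72.2, 74.7, 36.5 and 42.4 in pracinostat libraries, against 60.3, 88.6 and 76.8 in DMSO libraries. The proximal site was thus the higher one in 6 of 7 libraries, the exception being pracinostat replicate 1. Pracinostat replicate 3 had the largest gap between the sites, with the proximal site at 98.7 and the distal site at 36.5.

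At the second Ikzf1 site the percentile was 90.8, 61.7, 98.7 and 79.8 in pracinostat libraries and 83.9 and 72.5 in DMSO replicates 1 and 3, and DMSO replicate 2 had no summit at either site. At the first it was 59.5, 43.4, 36.5 and 54.5 in pracinostat libraries and 41.1 and 36.5 in those 2 DMSO libraries. The second site was the higher one in all 6 libraries with a summit. Only the first lies close enough to the gene end to enter the gene-end values above. When genes were ranked by their start sites alone, Ikzf1 stood at 84.4, 47.8, 97.7 and 69.5 in pracinostat libraries, against 70.4, 16.6 and 62.1 in DMSO libraries, where 16.6 is the value of no summit. The difference was 0.91 ± 0.45 (SE) with an unadjusted p of 0.0494, a level reached by 6.23% of the 10153 genes ranked so, and an adjusted p of 0.799 (limma). Without DMSO replicate 2 it was 0.44, with an unadjusted p of 0.367.

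At the first Mitf site the percentile was 68.8, 94.5, 95.5 and 93.9 in pracinostat libraries, against 93.1, 94.5 and 49.7 in DMSO libraries. Its second site, 122.8 kb on, had a summit in 3 pracinostat libraries and 1 DMSO library, at 22.3 to 34.6. The third site, 184.7 kb on, had a summit in 0 of 7 libraries. As background, the last of the Mitf promoters is the one used in melanocytes.

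The single Cebpa site lay at 95.1, 94.7, 97.5 and 83.7 in pracinostat libraries and at 94.7, 83.3 and 98.8 in DMSO libraries. At the Cebpb site the values were 56.3, 71.9, 58.9 and 36.0 in pracinostat libraries and 64.8, 53.7 and 89.7 in DMSO libraries. Every Cebpa value was above the Cebpb value of the same library. The Irf8 start sites, 2.28 kb apart, lay at 45.6 to 61.7 and 48.6 to 66.8 in the 4 pracinostat libraries and at 36.5 to 58.7 and 61.8 to 64.8 in the 2 DMSO libraries with a summit. The second was the higher one in those 6 libraries, and 1 IgG library had a summit there too. The Tfec site had a summit in pracinostat replicates 1 and 4 only, at 31.4 and 36.0.

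**Figure D3:**
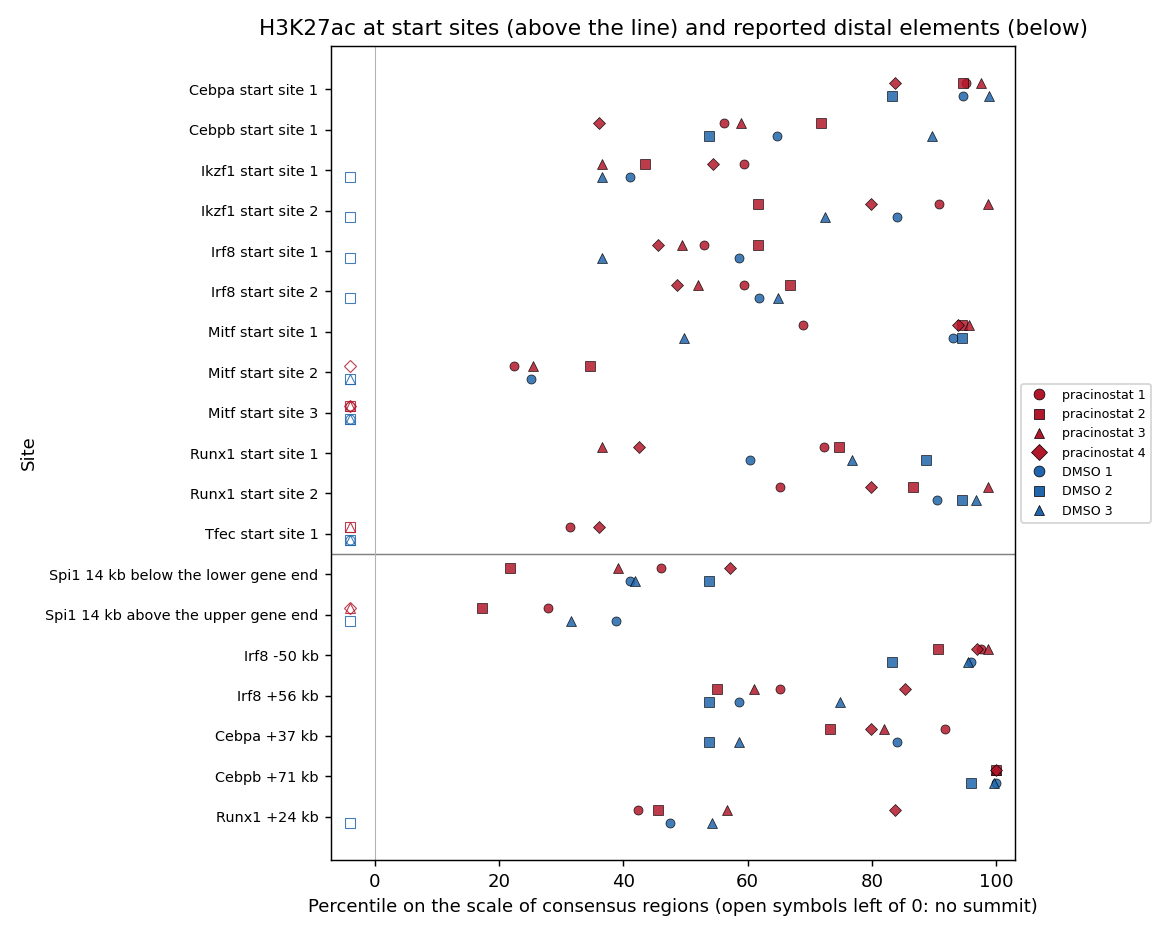
Percentile on the scale of consensus regions (x axis) at the start sites of 7 factors (upper rows) and at distal elements known from other work (lower rows), with pracinostat libraries in red above DMSO libraries in blue. Symbols are single libraries, and open symbols left of 0 are libraries without a summit; the element 71 kb from Cebpb reaches 99.6 to 100 in 6 of 7 libraries.

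Over the gene span plus 100 kb, the loci of Cebpb and Spi1 were among the most densely marked in the genome in every library. Each library contributed its 15000 highest summits, so that lists were of equal length. The Cebpb locus held 32, 34, 42 and 37 of them in pracinostat libraries, against 39, 25 and 39 in DMSO libraries, over a window of 201.5 kb. The Spi1 locus held 28, 29, 26 and 25 in pracinostat libraries, against 28, 19 and 25 in DMSO libraries, over 233.4 kb. The groups overlapped for both genes, and DMSO replicate 2 had the lowest count of each.

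Per 100 kb, the mean over the 7 libraries was 17.6 summits for Cebpb, 11.02 for Spi1, 6.48 for Irf8, 5.99 for Cebpa, 2.39 for Runx1, 1.74 for Ikzf1, 1.12 for Maf, 1.03 for Mitf and 0.107 for Tfec. The median over all genes was 0.781. Among all genes the percentile of this density was 99.8 to 100 for Cebpb and 98.3 to 99.5 for Spi1 over the 7 libraries. Cebpb was denser than Spi1 in 7 of 7 libraries, although their ranges over libraries overlapped. Of the other neighbours in this order, the ranges did not overlap between Spi1 and Irf8, between Cebpa and Runx1, or between Mitf and Tfec, and they overlapped for the rest. A count over a window is not one of the gene alone, since 10 other genes lie at least in part within the Spi1 window, among them Slc39a13, Madd and Nr1h3, and 0 in those of Maf, Tfec and Mitf.

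**Figure D4:**
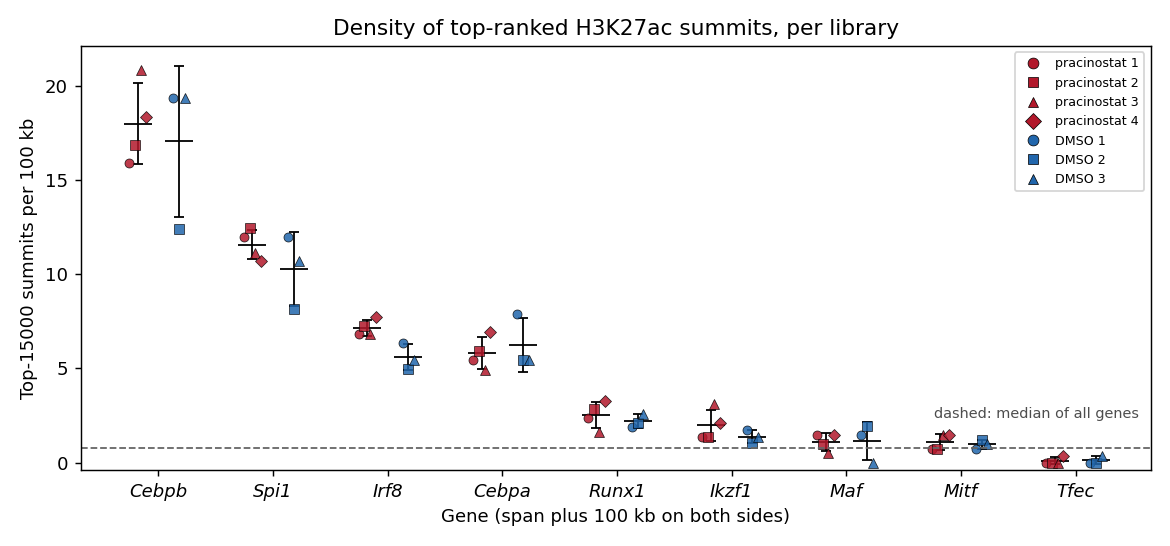
Number of each library's 15000 highest H3K27ac summits per 100 kb of gene span plus 100 kb on both sides (y axis) for the 9 factors (x axis), with pracinostat libraries to the left of DMSO libraries. Symbols are single libraries and bars the mean ± SD; the dashed line is the median over all genes, 0.781, and Cebpb and Spi1 lie far above it in every library.

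Irf8 was the one factor whose counts separated the groups, with 15, 16, 15 and 17 summits in pracinostat libraries, against 14, 11 and 12 in DMSO libraries. Every pracinostat library was above every DMSO library, which held for 1.4% of the 10877 genes tested. The means were 15.8 ± 0.957 (SD, n = 4) with pracinostat and 12.3 ± 1.53 (n = 3) with DMSO, a fitted 1.27-fold ratio on the scale of summits plus 0.5. The log2 difference of 0.35 ± 0.22 (SE) had an unadjusted p of 0.133 and an adjusted p of 0.884 (limma). Without DMSO replicate 2 the difference was 0.27, with the 5000 highest summits per library in place of 15000 it was -0.65, and with the 30000 highest it was 0.48 (unadjusted p = 0.0147, adjusted p = 0.818, limma).

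Among the lower counts, Cebpa had 11, 12, 10 and 14 in pracinostat libraries, against 16, 11 and 11 in DMSO libraries. Runx1 had 10, 12, 7 and 14 in pracinostat libraries, against 8, 9 and 11 in DMSO libraries. Ikzf1 had 4, 4, 9 and 6 in pracinostat libraries, against 5, 3 and 4 in DMSO libraries. In each of these 3 loci the groups overlapped. Maf had 1 to 3 in pracinostat libraries and 0 to 4 in DMSO libraries, Mitf had 3 to 6 in pracinostat libraries and 3 to 5 in DMSO libraries, and Tfec 0 to 1 in both groups.

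Of the 9 factors 8 had enough summits to be tested, 7 higher and 1 lower with pracinostat on the fitted log2 scale, and 0 passed an adjusted p of 0.05 (limma), as did 0% of all 10877 genes. At an unadjusted p under 0.05 the count was 0 of 8, against 5.21% of all genes (3.18% higher and 2.03% lower). Maf is among the 7, although its mean count was 2.25 with pracinostat and 2.33 with DMSO, where replicate 3 was at 0. The median log2 difference was 0.17 over the 8, and 0.02 over all genes tested. Without DMSO replicate 2 there were 6 higher and 2 lower, with 0 at either threshold.

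Within the 9 loci lay 204 of the consensus regions: 53 at Cebpb, 32 at Irf8, 29 at Spi1, 27 at Runx1, 24 at Cebpa, 15 each at Mitf and Ikzf1, 7 at Maf and 2 at Tfec. They lay within 1 kb of the gene's ends in 15 cases, inside the gene in 62 and in the flanks in 127. The gene table gives no exons, so regions inside a gene are not assigned to exon or intron. A mean percentile above 90 over the 7 libraries was found for 15 of the 204 (7.35%), against 3.88% of all 32262 regions. Of these 15, 7 were at Cebpb, 4 at Spi1, 3 at Cebpa and 1 at Irf8. Some of them lie in or near other genes. In the Cebpa locus, chr7:35025877-35026428 and chr7:35026882-35029450 lie inside Pepd, at -93.1 and -91.1 kb from the start site. In the Cebpb locus, chr2:167656260-167658945 lies inside Tmem189, and chr2:167588436-167589793 lies at the window's edge, at -99.8 kb. In each of the 9 loci the region given first is the one with the highest mean percentile, and all 7 IgG libraries lacked a summit in every region named.

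The strongest region of all lay 71.6 kb past the Cebpb start site, at chr2:167759548-167761459, outside any gene. Its top summit ranked 31, 1, 22 and 34 in the pracinostat lists, where 1 is the highest score, against 2, 1343 and 119 in the DMSO lists. It was among the 34 highest in 5 of 7 libraries, in both groups, and its mean percentile was the 18th highest of all regions. The difference was 0.64 ± 0.41 (SE, adjusted p = 0.816, limma), 0.09 without DMSO replicate 2 and 1.22 without DMSO replicate 1 (unadjusted p = 0.119, 0.833 and 0.00988). The region belongs to a run of 19 consensus regions between 60 and 90 kb past the start site, 5 of them above a mean percentile of 90. An enhancer about 71 kb from Cebpb is known from mouse monocytes. Next to it, 76.4 kb past the start site, chr2:167764829-167765816 stood at 98.7, 91.2, 89.3 and 90.5 in pracinostat libraries, against 99.3, 98.6 and 99.3 in DMSO libraries. Pracinostat replicate 1 lay within the DMSO range and the other 3 below it, and the difference of -0.84 ± 0.45 (SE) had an adjusted p of 0.816 (limma).

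At Spi1 the 4 strongest regions lay at the lower-coordinate gene end or inside the gene. The first, chr2:91096277-91099386, stood at 97.2, 99.0, 90.2 and 94.2 in pracinostat libraries, against 93.0, 99.0 and 96.8 in DMSO libraries. The region at the gene end, chr2:91081649-91083850, stood at 99.3, 98.6, 98.9 and 73.6 in pracinostat libraries, against 95.4, 93.3 and 97.4 in DMSO libraries. Pracinostat replicate 4 was thus low at the gene end, while at the first region it lay between other libraries. A weak region between these, chr2:91091857-91092357, had a summit in 0 of 4 pracinostat and 2 of 3 DMSO libraries, with a difference of -1.02 ± 0.54 (SE), an unadjusted p of 0.0615 and an adjusted p of 0.816 (limma). Its difference without DMSO replicate 2 was -0.90 with an unadjusted p of 0.00345 and an adjusted p of 0.577 (limma), without DMSO replicate 1 it was -0.67, and with summits extended by 500 bp it was -0.22. Its neighbour, chr2:91092550-91093050, had one in 4 of 4 pracinostat libraries and 1 of 3 DMSO libraries. That neighbour was chosen after its values were seen, and so was a region near the far edge of the Spi1 window, inside Acp2 (chr2:91205493-91207099). There the values were 92.9, 93.3, 91.1 and 92.9 in pracinostat libraries, against 87.7, 78.2 and 85.2 in DMSO libraries, with no overlap and an unadjusted p of 0.342.

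The strongest Irf8 region lay 50.2 kb before the start site, at chr8:120685101-120687182, where a PU.1-bound enhancer of monocytes is known. It stood at 97.4, 90.4, 98.6 and 96.8 in pracinostat libraries, against 95.8, 78.2 and 95.3 in DMSO libraries, and the groups overlapped. A weaker region beside it, chr8:120683394-120683894, 52.7 kb before the start site, stood at 36.7, 40.2, 48.2 and 73.6 in pracinostat libraries, and 0 of 3 DMSO libraries had a summit there. The difference was 1.12 ± 0.56 (SE), with an unadjusted p of 0.0443, and it was 0.73 with summits extended by 100 bp and 0.25 with 500 bp (unadjusted p = 0.186 and 0.597). Inside the gene, 5.90 kb past the start site, chr8:120741959-120742551 stood at 98.2, 59.3, 62.1 and 80.8 in pracinostat libraries, against 69.0, 47.0 and, without a summit, 10.8 in DMSO libraries. Its difference was 1.15 ± 0.50 (SE), with an unadjusted p of 0.0212. It was 0.66 without DMSO replicate 3, 0.74 without pracinostat replicate 1 and 0.64 with summits extended by 500 bp, with unadjusted p of 0.230, 0.177 and 0.178. Both had an adjusted p of 0.816 (limma).

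The strongest Cebpa region, chr7:35117660-35119318, ended just past the start site and stood at 94.8, 94.6, 97.4 and 82.7 in pracinostat libraries, against 94.6, 98.1 and 98.7 in DMSO libraries. In DMSO replicate 2 it reached 98.1, while the start site stood at 83.3 on the scale of consensus regions, since the highest summit lay more than 1 kb from the gene. The gene-end value there, 72.3, is a percentile among genes and not on this scale. The strongest Runx1 region, chr16:92696430-92698102, covered the proximal start site and stood at 63.8 to 98.6 in pracinostat libraries and 90.3 to 96.5 in DMSO libraries. A region 28.9 kb beyond the 3′ end of Runx1, chr16:92572203-92572930, stood at 89.2, 72.6, 45.5 and 78.6 in pracinostat libraries, against 9.91 (no summit), 47.0 and 46.0 in DMSO libraries. Its difference was 1.12 ± 0.50 (SE), with an unadjusted p of 0.0244 and an adjusted p of 0.816 (limma), and pracinostat replicate 3 lay within the DMSO range. Without DMSO replicate 1 it was 0.72, and with summits extended by 500 bp 0.45 (unadjusted p = 0.208 and 0.344).

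The strongest Maf region, chr8:115707586-115708381, at the upper gene end, stood at 83.2, 89.6, 48.2 and 93.6 in pracinostat libraries, against 78.9, 63.4 and 50.8 in DMSO libraries. The strongest Mitf region, chr6:97806677-97807749, covered the first start site and stood at 67.0, 94.4, 95.3 and 93.6 in pracinostat libraries, against 93.0, 93.3 and 48.5 in DMSO libraries. The better of the 2 Tfec regions, inside the gene at chr6:16891832-16892332, stood at 54.6, 42.4, 28.5 and 58.5 in pracinostat libraries, against 35.5, 20.2 (no summit) and 91.5 in DMSO libraries. In these 3 loci the values spread widely within both groups. For Ikzf1 the strongest region, chr11:11808550-11809379, lay at an end of the neighbouring gene Fignl1, at 76.4 to 88.4 in pracinostat libraries and 63.4 to 92.7 in DMSO libraries. A weaker one inside Ikzf1, chr11:11729137-11729637, had a summit in 1 of 4 pracinostat libraries, at 35.8, and in 3 of 3 DMSO libraries, at 57.8, 78.2 and 50.8. This was the smallest p of the 204 regions (unadjusted p = 0.0120, adjusted p = 0.816, limma), with a difference of -1.40 ± 0.56 (SE). It was -0.42 when summits were extended by 100 bp (unadjusted p = 0.416) and turned to 0.25 with 500 bp, where the region merged with its neighbours.

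**Figure D5:**
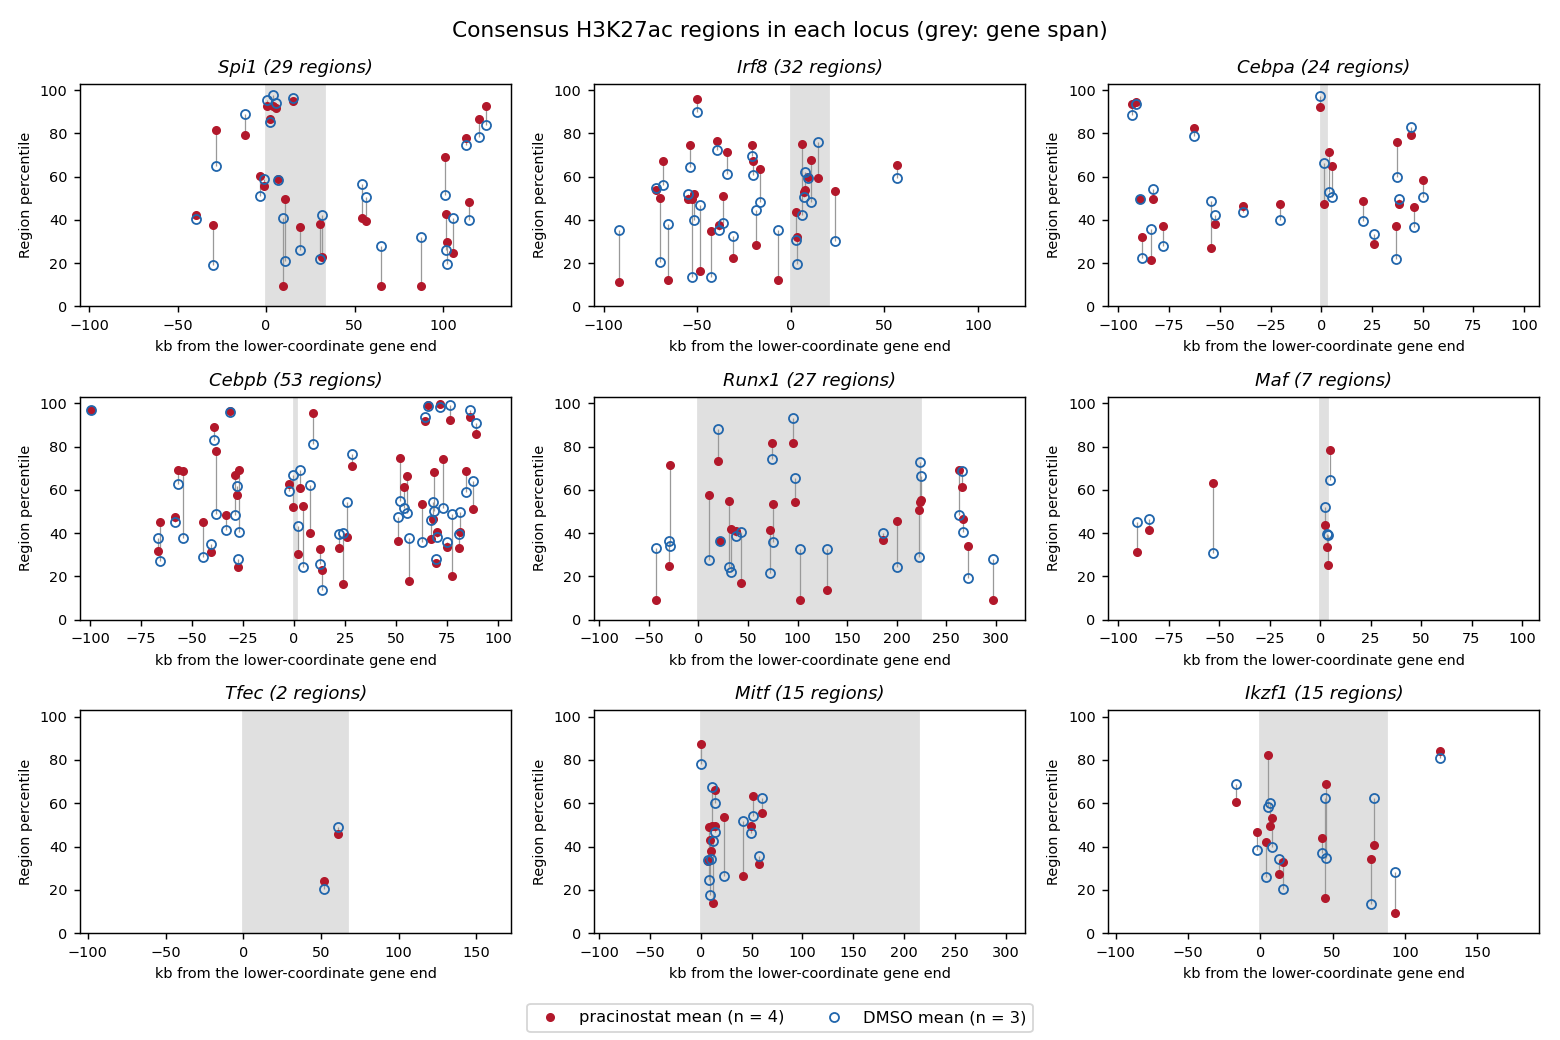
Mean percentile (y axis) of the 204 consensus regions against their distance in kb from the lower-coordinate gene end (x axis), 1 panel per factor, with the gene span in grey. Filled red points are pracinostat means (n = 4) and open blue circles DMSO means (n = 3), joined by a line; the 19 regions 60 to 90 kb from Cebpb include the one with the highest mean of all 204.

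Over the 204 regions, 115 had a higher mean percentile with pracinostat and the others a lower or equal one. The count past an adjusted p of 0.05 was 0 (limma), against 0.0062% of all 32262 regions. At an unadjusted p under 0.05, 4 were higher and 1 lower, against 2.72% and 1.88% of all regions, or 4.6% in either direction. Every pracinostat library lay above every DMSO library at 8 of the 204, and below at 1, against 3.35% and 2.45% of all regions. The 4 higher ones were 2 at Irf8, 1 at Runx1 and 1 at Ikzf1. As shares of the 204, the calls at an unadjusted p under 0.05 are 1.96% higher and 0.490% lower, both below those of all regions. With DMSO replicate 2 left out, 102 regions were higher and 0 passed the adjusted test (limma). In that fit 4 of the 204 (1.96%) had an unadjusted p under 0.05 in the higher direction and 7 (3.43%) in the lower. Both shares were slightly above those of all regions, 1.46% and 3.33%.

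Distal elements known from other work were read in windows of 1.5 kb around their reported distances. The Irf8 element at -50 kb and the Cebpb element at 71 kb, described above, were among the 15000 highest summits in 7 of 7 libraries, whereas on average 3.16 and 3.14% of all genes' windows at the same distances held such a summit in a library. The Cebpa element at 37 kb, an enhancer of myeloid progenitors, stood at 91.8, 73.3, 81.9 and 79.8 in pracinostat libraries, against 83.9, 53.7 and 58.7 in DMSO libraries, and was among the 15000 highest in 5 of 7. The Irf8 element at 56 kb stood at 65.2, 55.0, 61.1 and 85.3 in pracinostat libraries, against 58.7, 53.7 and 74.8 in DMSO libraries, among the 15000 highest in 2. The groups overlapped at both. At their distances, 3.12 and 3.23% of all genes' windows held 1 of the 15000 highest summits in a single library on average. At the distance of the Runx1 element the share was 3.26%. The Runx1 element at 24 kb, an enhancer of emerging blood stem cells, stood at 42.3 to 83.7 in pracinostat libraries and at 47.5 and 54.3 in DMSO replicates 1 and 3, among the 15000 highest in 1 of 7 libraries, and 1 IgG library had a summit there.

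The upstream element of Spi1, known about 14 kb before the gene in mouse, was looked for on both sides, since the strand of Spi1 was not in the tables used. Below the lower gene end the window had a summit in 7 of 7 libraries, at 46.0, 21.8, 39.1 and 57.2 in pracinostat libraries and at 41.1, 53.7 and 41.9 in DMSO libraries. None of these was among the 15000 highest of its library. Just past this window, towards Spi1, lay chr2:91070121-91071000, at an end of the neighbouring gene Slc39a13 and chosen after its values were seen. Its top summit ranked 4844, 9856, 9951 and 6849 in the pracinostat lists, against 7440, 2637 and 1515 in the DMSO lists. Above the upper gene end 4 libraries had a summit, at 17.2 to 38.8, again with none among the 15000 highest.

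The IgG libraries gave the background. Within 1 kb of the ends of the 9 genes they held 0 summits in all 7 libraries. Among all genes, 0.53 to 1.40% had an IgG summit at their ends in a pracinostat library and 1.38 to 2.70% in a DMSO library. With shares this low, 0 at the 9 genes does not set them apart from other genes. Over the 9 loci together they held 4, 13, 9 and 3 in pracinostat libraries and 20, 11 and 4 in DMSO libraries. By gene the sum over the 7 libraries ran from 3 at Maf to 11 at Mitf. Tfec, with 10 to 25 H3K27ac summits per pracinostat library and 4 to 30 per DMSO library in the full lists, had 8 in the IgG libraries together.

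Other genes around the factors did not pass the adjusted test at their ends either. Of 33 relatives of the 9 (ETS, IRF, C/EBP, RUNX, MAF, MITF and Ikaros families) 30 were ranked, 13 higher and 17 lower with pracinostat, and at an unadjusted p under 0.05 2 were higher (Fli1 and Irf9, an ETS factor and the interferon-response IRF) and 0 lower, against 2.74% and 3.42% of all genes. Of 19 other macrophage factors 18 were ranked, 12 higher and 6 lower, with 0 at that level. Of 20 genes known as PU.1 targets 19 were ranked, 9 higher and 10 lower, and those at that level were 2 lower, the cytokine receptor chains Csf2ra and Csf2rb. Of 17 factors of other lineages 6 were ranked, 5 higher and 1 lower, 1 of them (Klf1) at that level, and Gata2 and Sox17 had a summit in 0 of 7 libraries. Over the ranked genes, the mean gene-end percentile of the other macrophage factors was 58.9 to 68.3 in pracinostat libraries and 59.0 to 62.0 in DMSO libraries, and that of the factors of other lineages was 14.8 to 21.5 in pracinostat libraries and 8.43 to 23.7 in DMSO libraries.

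Among cell type markers, 12 of the 15 macrophage genes were higher with pracinostat and 3 lower, with 0 at an unadjusted p under 0.05. All 10 microglia genes were higher and 0 lower, with 0 at that level. Of 13 neutrophil genes 10 were ranked, 1 higher and 9 lower. At that level 3 were lower (Cxcr2, Camp and Padi4), against 3.42% of all ranked genes. Of 9 lymphocyte genes 5 were ranked, of 6 neuron and astrocyte genes 2, of 7 oligodendrocyte genes 2 and of 5 endothelial genes 3, with 0 at that level in each. No gene of any list passed an adjusted p of 0.05 (limma), and the median difference was 0.22 over the macrophage genes, 0.35 over the microglia genes and -0.39 over the neutrophil genes, against -0.01 over all ranked genes. With DMSO replicate 2 left out, those with an unadjusted p under 0.05 were Maff (lower) among the relatives, Klf2 (higher) among the other macrophage factors, Klf1 (higher) among factors of other lineages, Csf3r (lower) among PU.1 targets, and Cxcr2 and Csf3r (lower) among neutrophil genes, again with 0 past the adjusted test. The share of all genes at that level in this fit is not given here, so these calls have no background beside them. All 10 microglia genes were again higher, and 11 macrophage genes were higher and 4 lower.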

How the data were processed

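H3K27ac and IgG CUT&Tag libraries were each deposited as 1 list of peak summits with a −log10 score, called per library. The deposited −log10 score may belong to p-values or to q-values, which no source here settles, and it grows with depth, so it served only to rank summits within a library. The submitters' processing notes name build mm10 and the tools MACS2 2.2.9.1, Bowtie2, HOMER and DESeq2 without their roles. Reads per library were not given, which leaves the number of summits as the only sign of depth. Gene spans came from the RefSeq table of GRCm38.p6 and start sites, strand and promoter sequence from its promoter table, which has 7 of the 9 genes.

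Gene-end percentiles used full lists, with genes lacking a summit tied at the bottom. Locus counts used the 15000 highest summits per library, as log2(summits + 0.5), for genes with a mean of at least 2. Consensus regions were those summits extended by 250 bp and merged, scored from the full lists. In DMSO replicate 2, region values of 47.0 are its lowest score and 20.2 no summit; in the other libraries no summit gives 8.08 to 11.2. Ranks are relative, so a change at all sites alike would not show. Percentiles were turned into normal scores. Pracinostat and DMSO were compared with limma 3.58.1 (trended, robust) in R 4.3.3 with statmod 1.5.0, and Benjamini-Hochberg adjustment over all features at a threshold of 0.05. Each limma step was also run on simulated data with planted changes. The simulation held no library like DMSO replicate 2, and its changes exceeded the differences at the members' gene ends and loci. It therefore does not show whether differences of that size would be found. Python 3.11.15 was used for the rest.

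Named were the 9 genes, the strongest region per locus, the 3 regions with the smallest p per direction, the 3 genes most like Spi1, and known distal elements, motifs and lists. The members and lists were chosen with earlier results of these data known. Alternatives changed windows, flanks, list length, extension, filters, the replicate block and the libraries left out. Replicate numbers are shared between groups and were not found to pair libraries.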

Additional observations from a re-analysis of the deposited data

Results flagged for a closer look

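Of 32 groups of 4 pracinostat libraries examined among the members' values, 5 had 1 library far from the other 3. Chance gives about 1 in 20 such groups where values are normally distributed. Percentiles are bounded and counts are whole numbers, and whether the rate holds for them was not tested. The 5 of 32 therefore do not show an excess of outlying libraries. The rate of 1 in 20 does not hold for 2 of the 5, the Tfec counts and the Ikzf1 region. There 3 libraries sit at 0 or without a summit. Of the 5, 2 others read the same Mitf site. At the gene ends of Spi1, pracinostat replicate 4 stood at a percentile of 69.2, below the other 3. At the gene ends of Mitf, pracinostat replicate 1 stood at 65.7, and at the region over the first Mitf start site the same library stood at 67.0. In the Tfec locus pracinostat replicate 4 had 1 top-ranked summit and the other 3 had 0. At the weak region inside Ikzf1, pracinostat replicate 2 stood at 35.8 and the other 3 had no summit. The groups of 3 DMSO libraries were too small for this check.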

How the results depend on the processing

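The count of genes past an adjusted p of 0.05 at gene ends (limma) was 0, and became 1 with the 15000 highest summits, 2 with genes having a summit in any library, 2 with a window of 500 bp, and 0 to 4 when 1 library was left out (4 without DMSO replicate 3). For loci it was 0 under every alternative, and 0 to 0 with 1 library left out. For consensus regions it was 2, and became 0 with an extension of 100 bp, 1 with 500 bp, and 0 to 4 with 1 library left out (4 without DMSO replicate 1; 0 without DMSO replicate 2, pracinostat replicate 1 or pracinostat replicate 3). Among the 378 member values that these alternatives could fit, the lowest adjusted p was 0.577 (limma). Not fitted were Tfec at gene ends and its locus, Irf8 and Ikzf1 gene ends with 15000 summits, Spi1 and Maf at start sites, the Maf locus with a 50 kb flank, the Maf, Mitf and Ikzf1 loci with 5000 summits, and the weak Spi1 region at chr2:91091857-91092357 when a summit in 3 lists was required. A window of 2.5 kb gave 1 IgG summit, at Irf8, in place of 0. The cause of these shifts was not tested.

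The replicate block gave 0 genes, 0 loci and 1 region. Same-numbered libraries did not deviate together: the correlations of their deviations from the group means were -0.08 to 0.04, so the numbers were not treated as pairs. Under the block Cebpb gene ends turned to 0.00743, the Mitf locus to -0.0405 and the Fignl1-end region in the Ikzf1 locus to -0.00838. These differences are the same as those without pracinostat replicate 4. DMSO has no replicate 4, so under the block that library adds nothing to the difference.

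Directions that turned, none of them past the threshold, were as follows. At gene ends a 2.5 kb window gave -0.0200 for Irf8, -0.316 for Cebpa and 0.189 for Maf, and a 500 bp window gave -0.0897 for Spi1, -0.0360 for Irf8 and -0.0454 for Cebpa. For loci, 30000 summits gave 0.0988 for Cebpa and -0.0405 for Cebpb, 5000 gave -0.0770 for Spi1, -0.650 for Irf8 and -0.0400 for Runx1, and a 50 kb flank gave 0.22 for Cebpa. The weak region inside Ikzf1 turned to 0.25 with an extension of 500 bp. With 1 library left out, the gene-end differences spanned -0.0123 to 0.263 for Irf8, -0.34 to 0.35 for Cebpa, -0.459 to 0.0753 for Cebpb, -0.79 to 0.23 for Maf and -0.0724 to 0.597 for Mitf. The locus differences spanned -0.180 to 0.0809 for Cebpa, -0.11 to 0.20 for Cebpb, -0.61 to 0.98 for Maf and -0.0608 to 0.265 for Mitf. The strongest regions spanned -0.31 to 0.11 at Spi1, -0.61 to 0.50 at Tfec, -0.18 to 0.62 at Mitf and -0.27 to 0.29 at the Fignl1 end. Start sites alone without DMSO replicate 2, an alternative chosen after seeing the data, gave -0.134 for Irf8 and -0.355 for Cebpa. The other directions held where a fit could be made.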

Other observations

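Several loci of the macrophage markers held more top-ranked summits with pracinostat, a pattern chosen after its values were seen. Of the 15 marker loci 11 had a higher fitted count with pracinostat and 6 of these an unadjusted p under 0.05, against 3.18% of all loci in that direction, and 0 passed the adjusted test (lowest adjusted p = 0.848, limma). A lower fitted count was found for Csf1r, Itgam, Aif1 and Mpeg1. Their mean counts were 8.25, 5.75, 26.25 and 8.25 with pracinostat, against 8.67, 7.67, 27.67 and 8.67 with DMSO. Among the higher ones, Mertk, a receptor for the clearance of dying cells, had 9, 6, 10 and 8 top-ranked summits in pracinostat libraries. In DMSO libraries it had 4, 4 and 4. Fcer1g, a signalling chain of Fc receptors, had 11, 13, 15 and 10 in pracinostat libraries, against 9, 6 and 8 in DMSO libraries, again with no overlap. The complement genes C1qa, C1qb and C1qc lie side by side and share 1 set of counts, 6, 5, 5 and 7 in pracinostat libraries against 3, 6 and 0 in DMSO libraries, so the 6 loci are fewer independent ones. Without DMSO replicate 2, 5 of the 15 had an unadjusted p under 0.05 and 0 passed the adjusted test (lowest adjusted p = 0.878, limma). The 5 were Mertk, Cd68 and the C1q genes with their shared counts. Fcer1g was then at an unadjusted p of 0.0905 (limma). The share of all loci at that level in this fit is not given here. The difference between this list and the 9 factors was not tested.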
